A study of Homo sapiens with 83 samples.

Results

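The comparison set SHEP MYC-OFF cells late in culture against the same cells early in culture. SHEP is a human neuroblastoma cell line, and in both windows it carried N-MYC-ER, a constitutively expressed fusion of N-MYC with the part of the estrogen receptor that binds 4-hydroxytamoxifen (4OHT). In MYC-OFF the cells received the ethanol vehicle, so the fusion was present but not activated, and MYC-ON cells received 0.5 µM 4OHT. SKNAS, another human neuroblastoma line that also carried N-MYC-ER, was compared in MYC-OFF. Treatment began a day after plating, dexamethasone (0.1 µM), which sets cellular clocks to a common phase, followed a day later, and polyadenylated RNA was sequenced every 4 h. Circadian time (CT) is the number of hours after dexamethasone. The early window held CT24, CT28, CT32 and CT36, and the late window held CT64, CT68, CT72 and CT76. Each window had 4 libraries from each of 2 time series, which makes 8 early and 8 late libraries, 16 of the 83 libraries of the series. The other 12 SHEP MYC-OFF libraries (CT40 to CT60) lie between the windows. Libraries at different CTs of a series came from a single experiment, so 2 series are the only repeats, and p-values measure the spread between libraries. Time since plating, time since dexamethasone and any change of the medium or of cell density run together along a series and cannot be told apart here. The early CTs cover hours 0 to 12 of a 24 h cycle counted from CT24 and the late CTs cover hours 16, 20, 0 and 4, so the windows also differ in their phase.

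As a culture of adherent cells ages, nutrients in the medium are used up, metabolites and secreted proteins accumulate, and neighbouring cells come into contact. Cells sense several of these conditions through known transcription programmes. SREBP factors drive cholesterol synthesis genes when membrane sterol is low, ATF4 drives amino acid transport and synthesis genes when translation initiation is restrained, and YAP with TEAD and MRTF with SRF drive genes of the spread, contractile cell. Dexamethasone activates the glucocorticoid receptor, which directly induces FKBP5, TSC22D3 and PER1. Genes of these programmes, together with those of the clock, cell cycle, ribosome and matrix, were followed as fixed lists.

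The values are TPM, transcript abundances divided by gene length and scaled so that they sum to 1000000 in every library. They hold no read depth, so the depth of each library is unknown and a higher share for some genes must be balanced by a lower share for others. Between 21852 and 22767 genes were above 0 TPM in the early libraries and between 21726 and 22500 in the late ones. Mitochondrially encoded transcripts took 6.49 to 13.7% of TPM early and 6.62 to 9.96% late. Of 18 mesenchymal neuroblastoma markers, 15 had a mean of at least 1 TPM, with a summed level of 4494 to 5619.5 TPM early and 4269.7 to 4613 TPM late. Of 18 adrenergic markers, 5 reached that mean and 7 were listed at 0 in all 16 libraries, with sums of 58.0 to 82.2 TPM early and 57.5 to 70.5 TPM late. Schwann cell markers reached it for 2 of 10 genes, with sums of 40.6 to 61.0 TPM early and 43.5 to 54.9 TPM late. Of 10 markers of blood, epithelial and endothelial cells, 1 reached it and 3 were listed at 0, with sums of 1.3 to 4.74 TPM early and 1.22 to 3.36 TPM late.

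The 2 CT24 libraries stood apart from the rest of SHEP MYC-OFF in part of the genes that dexamethasone induces. The glucocorticoid list had 20 genes tested, the receptor gene NR3C1 and genes induced through the receptor. Of these, 10 (FKBP5, TSC22D3, PER1, KLF9, MT2A, MT1X, ERRFI1, NFKBIA, CEBPD and ANGPTL4) were lower in both CT24 libraries than in all 26 others, beside 1.36% of all genes tested. None of the 20 was above all others in both CT24 libraries, beside 2.32% of all genes. NR3C1 was at 24.0 and 22.6 TPM at CT24, above its median of 18.7 TPM in the other 26 libraries. SGK1 was at 94.2 and 78.8 TPM, above its median of 59.2 TPM. FKBP5, a co-chaperone of the glucocorticoid receptor, was at 8.67 and 10.7 TPM at CT24 and at 36.3 to 62.6 TPM in the other 26 libraries. TSC22D3, an anti-inflammatory leucine zipper protein, was at 7.10 and 6.56 TPM at CT24 and at 19.2 to 55.7 TPM afterwards. PER1, a clock repressor with a glucocorticoid element, was at 8.96 and 8.61 TPM and then at 21.4 to 50.6 TPM. None of the 20 was lowest in both libraries of any other CT. The CT24 libraries of MYC-ON were also low for FKBP5, at 20.7 and 22.1 TPM against at least 44.5 TPM at the other CTs. The labels place these libraries 24 h after dexamethasone. Whether their cells had been exposed to it as the later ones were was not tested, so the CT24 values and the early window rest on the labels. Where results lost a call or counts moved by over 1.5 times without CT24, the main ones are given both ways. Some small list counts are given with CT24 only.

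In limma on log2(TPM + 1) with the series as a block, 14280 genes with a mean of at least 1 TPM were tested, and 1604 (11.2%) passed both limits of a call: 0.05 for the Benjamini-Hochberg adjusted p, and 0.15 for the size of the log2 change. Of these 686 (4.8%) were higher late and 918 (6.43%) lower. After rescaling the libraries by the median of ratios the split turned to 873 higher and 772 lower, while the median change of all genes moved from −0.02 to −0.00084. Changes of at least 0.66 were called for 64 genes higher (0.448%) and 84 lower (0.588%). The windows did not overlap over all 16 libraries for 141 genes higher late (0.987% of genes tested) and 133 lower (0.931%), 274 in all (1.92%). Without CT24, 583 genes were higher (4.08%) and 660 lower (4.62%), 1243 in all (8.7%). Of 118 named genes that were called, 19 lost the call without CT24, with limma adjusted p-values of 0.051 to 0.12, among them SAA2, INSIG1, ENO2, TAP2, IRF1, CXCL1, GREM1, STC1 and RRP12. With only CT72 and CT76 against CT24 and CT28, which fall at the same hours of a 24 h cycle, 385 genes were higher (2.7%) and 415 lower (2.91%), 800 in all (5.6%). A linear trend over all 28 libraries, fitted together with 24 h terms, was called upward for 714 genes (5%) and downward for 1267 (8.87%), 1981 in all (13.9%). When the 2 series were fitted alone, 224 genes were higher and 402 lower in series 1 and 27 higher and 21 lower in series 2. A test of the difference between series called 1 gene (0.007%), PLAC8, whose change was higher in series 2 by 0.99 (adjusted p = 0.0035, limma), and 1247 genes had an unadjusted p below 0.05.

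Genes ranked by size of change were called, at 5 TPM or more, and chosen for windows that did not overlap within either series. Their lack of overlap is thus partly set by that choice. Of them, those with the largest rise were SAA1, C3, SAA2, LCN2, DPT and IGFBP4, all of which encode secreted proteins. C3 (chr19:6677704-6730562, GRCh38), the central complement component, was at 10.4 to 43.9 TPM early (median 21.3) and at 72.6 to 132 TPM late (median 93.7). The windows did not overlap, and the log2 change was 2.11 (SE 0.25, adjusted p = 0.00027). SAA1 (chr11:18266260-18269977), an acute phase apolipoprotein, was at 4.14 to 125 TPM early (median 44.9) and at 166 to 222 TPM late (median 191). Its log2 change of 2.54 (SE 0.58, limma adjusted p = 0.010) fell to 1.76 without CT24, and the plot of 12 genes by CT shows that its level climbed up to CT44 in both series. From CT44 on it ran between 136 and 224 TPM. Against CT40 to CT52, the libraries 24 h before the late window, the SAA1 change was 0.20 (limma adjusted p = 0.25). SAA2, a close copy of SAA1 with which reads may be shared, had a log2 change of 1.77, which without CT24 was 1.35 and no longer called (limma adjusted p = 0.051), and is uncertain for its shared reads as well. LCN2, an iron-siderophore binding protein, was at 0.679 to 2.40 TPM early and at 3.79 to 7.97 TPM late, a log2 change of 1.56 (SE 0.16).

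IGFBP4 (chr17:40443450-40457725), a secreted binding protein of insulin-like growth factors, climbed along the whole series, from 8.96 to 17.7 TPM early (median 13) to 30.6 to 48.2 TPM late (median 37.8), a change in log2 of 1.53 (SE 0.14, limma adjusted p = 8.2e-05). Against CT40 to CT52 it was still higher by 0.76 (limma adjusted p = 0.0013). PAPPA, the protease that cleaves IGFBP4, had a log2 change of 1.09, with 1.52 to 3.55 TPM early and 3.94 to 8.24 TPM late. Both partners of this axis were chosen for no overlap within either series, and they were also without overlap over all 16 libraries. DPT, a small matrix protein, had a log2 change of 1.53, and MMP7, a matrix metalloprotease, of 1.48. CSF1, the macrophage growth factor, was at 18.7 to 56.6 TPM early (median 37.3) and at 69.3 to 88.6 TPM late (median 76.4), a log2 change of 1.09 (SE 0.18). CCL2, a monocyte chemokine, was at 59.2 to 186 TPM early and at 178 to 309 TPM late, which overlap, and its log2 change was 1.07. The other genes chosen by that rule were PXYLP1 (1.5), ALOX5AP (1.40) and PLAAT4 (1.04), of which ALOX5AP overlapped between windows over all 16 libraries.

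Chosen by the same rule, with no overlap within either series, the genes with the largest fall were IGFN1, CGA, CNN1, MAP1LC3C and KCNMA1. IGFN1 (chr1:201190824-201228952), a protein of the muscle Z-disc family, was at 17.97 to 46.8 TPM early (median 30.1) and at 5.02 to 11.4 TPM late (median 7.77), a change in log2 of −1.74 (SE 0.17, limma adjusted p = 8.3e-05). CNN1, the smooth muscle calponin, was at 4.87 to 14.7 TPM early (median 9.32) and at 1.07 to 3.91 TPM late (median 2.67), a log2 change of −1.63 (SE 0.22). Neither gene overlapped between windows. KCNMA1, the pore subunit of the calcium-activated BK potassium channel, was at 53.8 to 156 TPM early and at 31.3 to 43.3 TPM late, a log2 change of −1.35 (SE 0.15). CGA (chr6:87085498-87095106), the common alpha subunit of the gonadotropins, was at 17.2 to 69.9 TPM early (median 23.9) and at 5.59 to 12.02 TPM late (median 7.17), a log2 change of −1.72 (SE 0.21). CGB8, a chorionic gonadotropin beta subunit, had a log2 change of −1.25, with windows that met at their edges (60.9 to 145 TPM early, 35.8 to 65.6 TPM late), and its near-identical paralogs and the pseudogene AC008687.6 (−1.33) make its own level uncertain. The remaining genes of this rank were MAP1LC3C (−1.47), MAP3K7CL (−1.29), ANKRD1 (−1.12), UCA1 (−1.07), SGCA (−1.05) and SFN (−1.03).

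**Figure D1:**
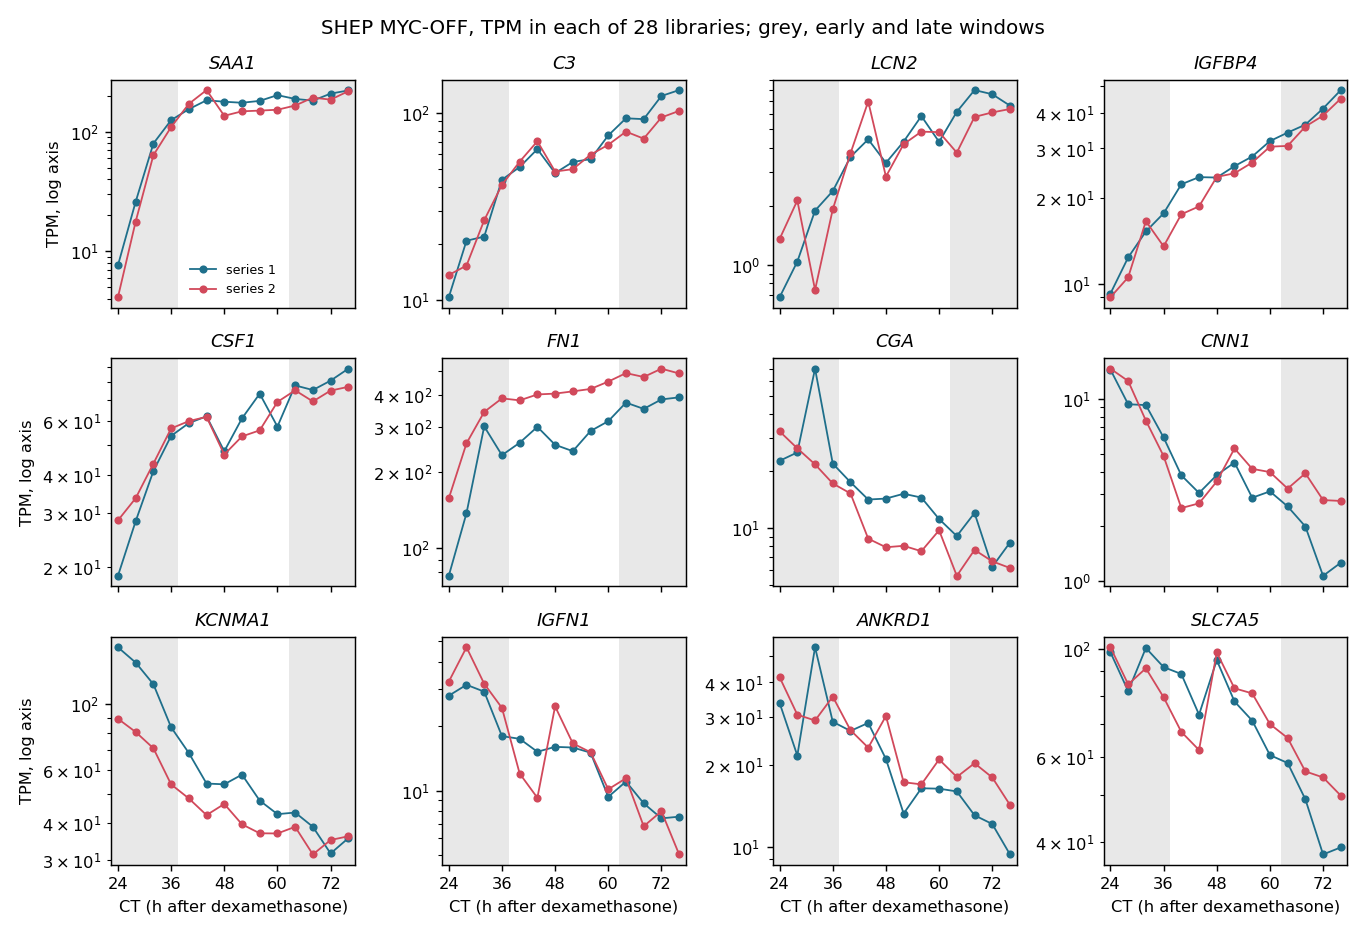
TPM on a log axis against CT (hours after dexamethasone) for 12 genes in all 28 SHEP MYC-OFF libraries, with each series as a line and the early and late windows in grey. IGFBP4 climbs in both series, and over both its lowest early library is at 8.96 TPM and its highest late one at 48.2 TPM. SAA1 climbs up to CT44 and from then on runs between 136 and 224 TPM.

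Gene lists moved in different directions, and their shares of called members are read against the 4.8% higher and 6.43% lower of all genes tested. Without CT24 these shares of all genes were 4.08% and 4.62%, and at the same hours of the cycle 2.7% and 2.91%. Against CT40 to CT52 they were 1.41% and 1.34%. The lists were not tested as sets.

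**Figure D2:**
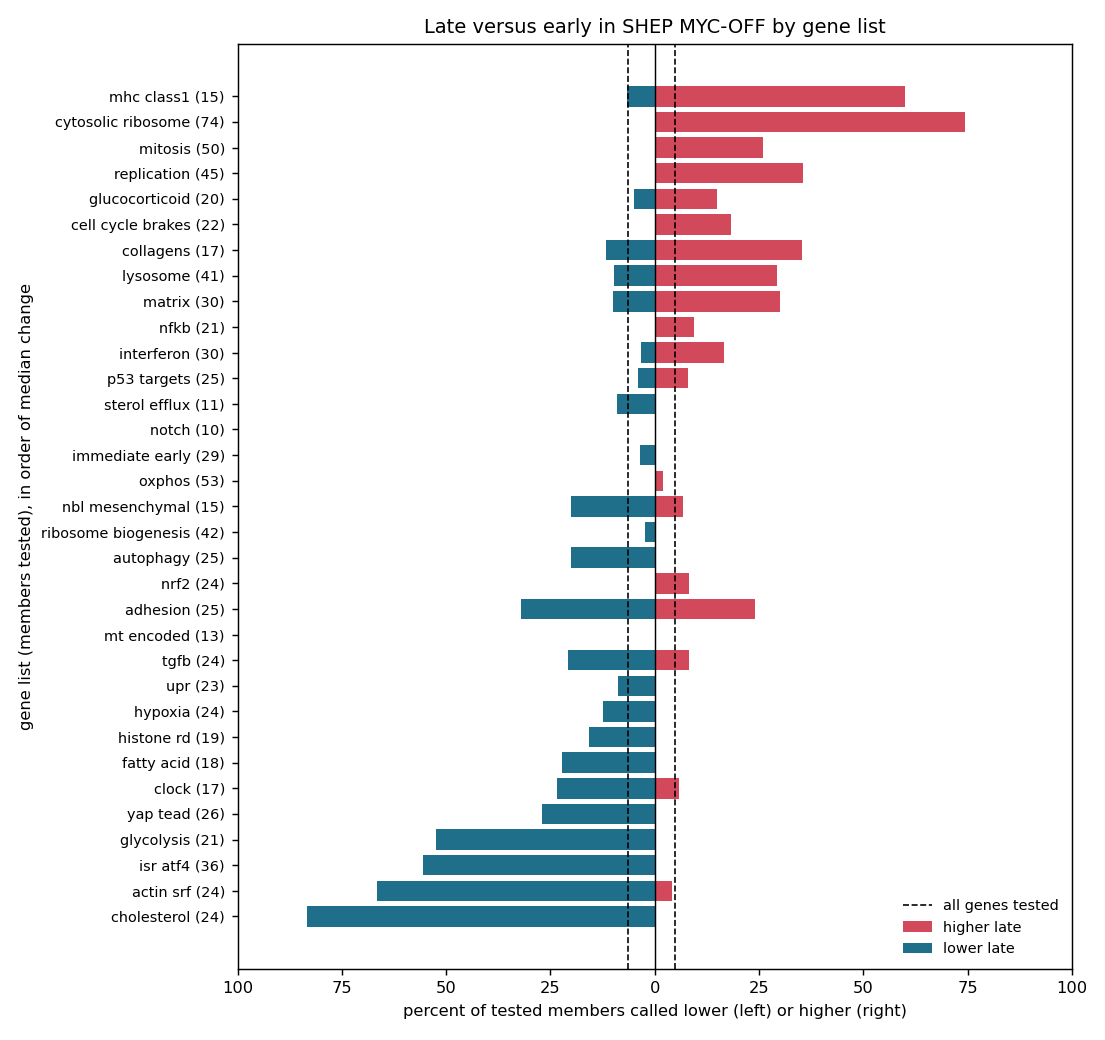
Percent of the tested members of each gene list (number tested in parentheses) that were called lower late (left) or higher late (right), with dashed lines at 6.43% lower and 4.8% higher for all 14280 genes tested; lists are in the order of their median change. Cholesterol synthesis stands at the bottom with 20 of 24 members lower, and 55 of 74 cytosolic ribosomal protein genes were higher.

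Cholesterol synthesis genes fell together. Of 24 genes tested, 20 were called lower and 0 higher, with a median log2 change of −0.35 and 11 members whose windows did not overlap. HMGCS1, an enzyme of the first steps of the pathway, was at 48.2 to 67.3 TPM early (median 55.2) and at 35.3 to 42.8 TPM late (median 39.1), a change in log2 of −0.50 (SE 0.07, limma adjusted p = 0.00046). Every late library was below every early one. MVK, mevalonate kinase, was at 25.3 to 37.54 TPM early and at 17 to 27.5 TPM late, which overlap, and its log2 change was −0.53. INSIG1, the sterol-regulated anchor of SREBP, was at 51.3 to 99.9 TPM early and at 48.2 to 59.8 TPM late, which overlap, and its change of −0.40 (limma adjusted p = 0.020) was −0.70 in series 1 and −0.11 in series 2. Without CT24 it was −0.32 and no longer called (limma adjusted p = 0.062). Without CT24, 17 members were called lower, and at the same hours of the cycle 11. Against CT40 to CT52, 6 were lower, beside 1.34% of all genes. Fatty acid synthesis, the other SREBP branch, had 4 of 18 members lower and 0 higher, among them SCD (−0.44) and FASN (−0.42). Promoter sequences from RefSeq (GRCh38.p14, the 250 bases before the annotated start) were searched on both strands for CACNCCA, the core of the sterol element. It was in 7 of 18 cholesterol list promoters in the table (38.9%), in 5 of the 14 of called members (35.7%) and in 14.5% of 27305 promoters. The windows of INSIG1 and MVK are shown because both genes were called and hold 1 match each, in capitals, that of INSIG1 on the opposite strand.
INSIG1, chr7:155297628-155297877, plus strand: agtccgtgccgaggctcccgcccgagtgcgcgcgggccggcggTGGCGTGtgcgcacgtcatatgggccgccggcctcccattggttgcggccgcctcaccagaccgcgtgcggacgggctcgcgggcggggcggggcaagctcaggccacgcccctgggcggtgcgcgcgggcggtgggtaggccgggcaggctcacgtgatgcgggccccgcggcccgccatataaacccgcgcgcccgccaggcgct
MVK, chr12:109573544-109573793, plus strand: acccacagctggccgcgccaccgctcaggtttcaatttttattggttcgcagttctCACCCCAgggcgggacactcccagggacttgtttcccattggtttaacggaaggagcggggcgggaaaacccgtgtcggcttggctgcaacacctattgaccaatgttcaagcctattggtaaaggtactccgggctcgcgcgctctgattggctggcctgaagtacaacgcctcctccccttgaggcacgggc

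Genes of the integrated stress response, the ATF4 programme of amino acid supply, were also lower. Of 36 tested, 20 were called lower and 0 higher, with a median of −0.26, and the windows did not overlap for 5 of them. SLC7A5, the light chain of the large neutral amino acid transporter, was at 79.6 to 100.9 TPM early (median 91.6) and at 37.8 to 65.6 TPM late (median 52.2), a change in log2 of −0.83 (SE 0.10, limma adjusted p = 0.00027). Its heavy chain SLC3A2 was at 115 to 151 TPM early and at 84.7 to 106 TPM late, a log2 change of −0.48. Neither transporter chain overlapped between windows. ASNS, asparagine synthetase, was at 24.7 to 51.8 TPM early (median 34.8) and at 12.3 to 32.5 TPM late (median 17.5), a change in log2 of −0.86 (SE 0.17, limma adjusted p = 0.0041), and its windows overlapped. CHAC1, which degrades glutathione, was at 9.02 to 19.1 TPM early and at 4.68 to 9.26 TPM late, a log2 change of −0.99 (SE 0.14). Against CT40 to CT52 16 members were lower, beside 1.34% of all genes, with a change of −1.02 for ASNS. Without CT24 14 were lower and 1 higher. The plot of list means by CT shows this list at its highest in series 1 at CT36, CT40 and CT48 and in series 2 at CT24, CT32 and CT48. The ATF4 core TTGCATC was in 1 of 29 promoters of the list (3.45%), that of CHAC1, and in 2.07% of all promoters.
CHAC1, chr15:40953221-40953470, plus strand: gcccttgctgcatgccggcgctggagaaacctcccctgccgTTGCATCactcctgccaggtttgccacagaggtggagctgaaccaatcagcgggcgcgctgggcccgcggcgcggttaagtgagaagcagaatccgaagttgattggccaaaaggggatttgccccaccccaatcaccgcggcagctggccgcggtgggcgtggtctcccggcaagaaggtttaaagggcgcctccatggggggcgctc

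Glucose metabolism genes moved the same way. Of 21 glycolysis genes tested, 11 were lower and 0 higher, with a median of −0.26 (−0.38 in series 1 and −0.11 in series 2). SLC2A1, the main glucose transporter of proliferating cells, was at 168 to 365 TPM early (median 262) and at 136 to 178 TPM late (median 149), a change in log2 of −0.74 (SE 0.13, limma adjusted p = 0.0028). Its windows overlapped slightly, and the plot of 12 list genes by CT shows that its highest values were at CT24 and CT28. HK2, a hexokinase, had a log2 change of −0.51 and ENO2, an enolase, of −0.53. TXNIP, which restrains glucose uptake and is induced by glucose through MondoA, was higher, from 16.2 to 42.2 TPM early (median 31.9) to 47.4 to 62.52 TPM late (median 54.4), a change in log2 of 0.96 (SE 0.17, limma adjusted p = 0.0025). Of 24 hypoxia genes 3 were lower and 0 higher, and without CT24 1 was lower. Without CT24 ENO2 was not called, and 10 glycolysis genes were lower. At the same hours of the cycle 4 glycolysis genes were lower, beside 2.91% of all genes. Against CT40 to CT52 it was 3, beside 1.34%. The hypoxia element core ACGTG was in 8 of 19 glycolysis promoters (42.1%), 10 of 20 hypoxia promoters (50%) and 18.7% of all, and these letters also lie within the E-box and CLEAR cores given further on.

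Contractile and cytoskeletal genes were lower as well. Of 24 actin and SRF target genes tested, 16 were called lower and 1 higher, with a median of −0.27. Beside CNN1, TAGLN (transgelin) was at 187 to 354 TPM early and at 117 to 200.02 TPM late, a log2 change of −0.65, and TPM2, a tropomyosin, was at 205 to 298 TPM early and at 164 to 191 TPM late, a log2 change of −0.41. The member called higher was ACTA2, smooth muscle actin, at 77.7 to 105 TPM early and 97.7 to 110.3 TPM late, a log2 change of 0.22. TPM2 did not overlap between windows, whereas TAGLN and ACTA2 did. Of 26 YAP and TEAD targets, 7 were lower and 0 higher (median −0.18). CCN1, a matricellular protein, was at 451 to 769 TPM early and at 375 to 476 TPM late (log2 change −0.41, limma adjusted p = 0.010), CCN2 had a log2 change of −0.50 and F3, tissue factor, of −0.83. ANKRD1, a nuclear ankyrin protein and YAP target, was at 21.6 to 53.8 TPM early (median 32.1) and at 9.38 to 20.2 TPM late (median 15.1), a change in log2 of −1.12 (SE 0.16, limma adjusted p = 0.00064) with no overlap. Against CT40 to CT52, 4 actin and SRF targets and 2 YAP and TEAD targets were lower, beside 1.34% of all genes. The TEAD site GGAATG was in 6 of 18 promoters of the YAP and TEAD list (33.3%) and in 11.9% of all promoters. The ANKRD1 window holds 2 matches, in capitals.
ANKRD1, chr10:90921088-90921337, minus strand: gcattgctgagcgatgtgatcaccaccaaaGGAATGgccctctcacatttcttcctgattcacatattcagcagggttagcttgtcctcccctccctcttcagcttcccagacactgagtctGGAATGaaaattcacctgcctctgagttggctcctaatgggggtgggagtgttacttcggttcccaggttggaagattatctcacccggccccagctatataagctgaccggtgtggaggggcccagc

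**Figure D3:**
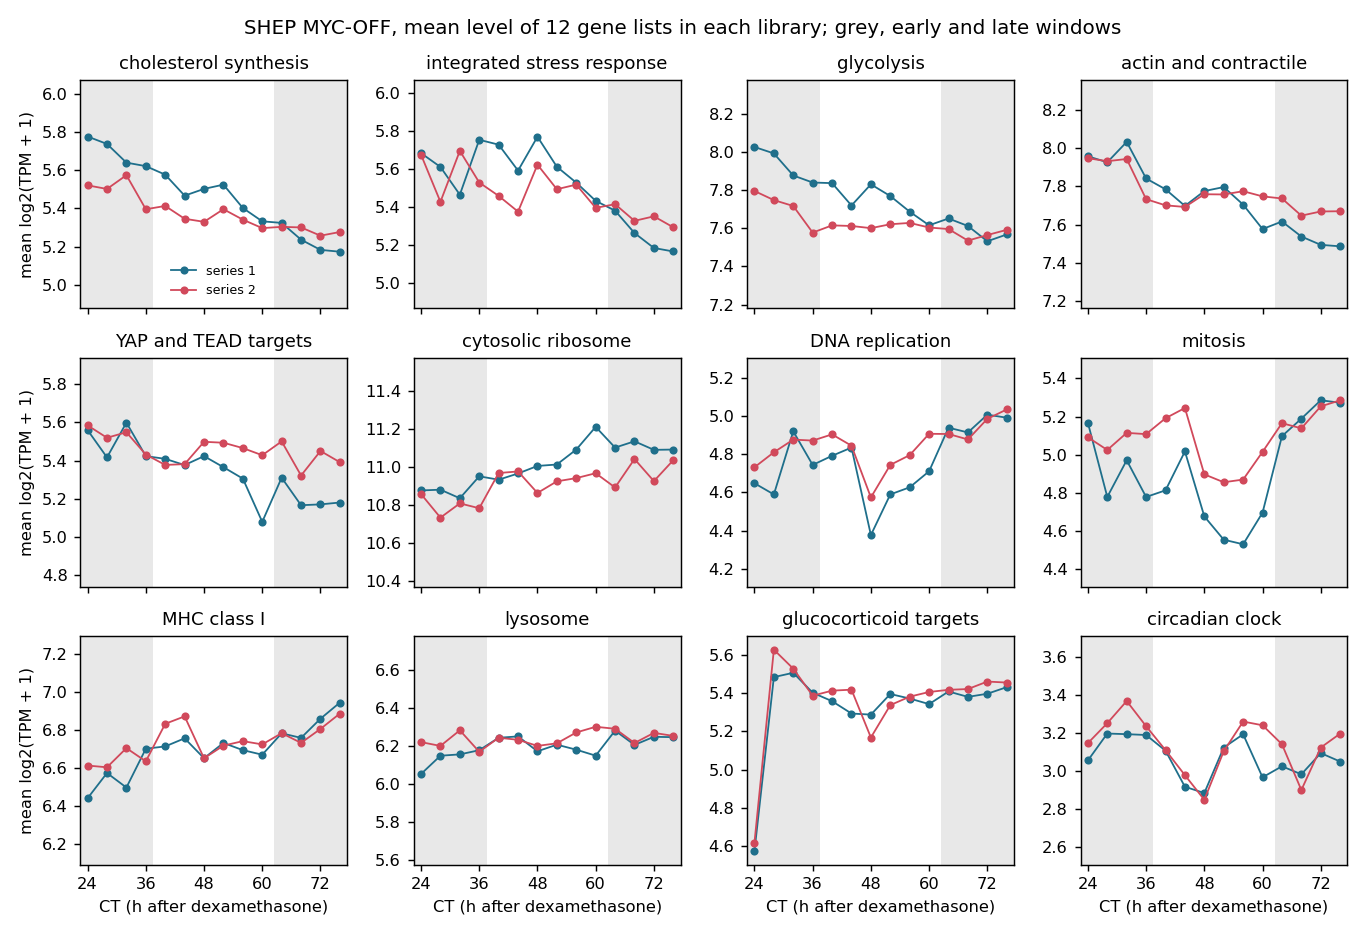
Mean log2(TPM + 1) of the members of 12 gene lists in each of the 28 SHEP MYC-OFF libraries against CT (hours after dexamethasone), with each series as a line, the windows in grey and a vertical axis of the same length in log2 units in every panel, placed around that list's own values. The mitosis list runs from 5.17 at CT24 to 4.53 at CT56 and 5.27 at CT76 in series 1, so its lowest values lie between the windows.

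Cell cycle genes were higher late, with a low point between the windows. Of 45 replication genes, 16 were higher and 0 lower (median 0.19), and of 50 mitosis genes 13 were higher and 0 lower (median 0.20). PCNA, the sliding clamp, was at 144 to 175 TPM early and at 185 to 219 TPM late, a change in log2 of 0.36 (SE 0.05, limma adjusted p = 0.00064). UBE2C, the E2 enzyme of the anaphase-promoting complex, was at 99.5 to 129 TPM early and at 138 to 167 TPM late, a log2 change of 0.43 (SE 0.06). Neither overlapped between windows. SPC25, a kinetochore protein, had a log2 change of 0.48 and TOP2A, topoisomerase II alpha, of 0.41. MKI67 (0.22, limma adjusted p = 0.27) and CCNB1 (0.17, limma adjusted p = 0.13) were not called, nor were the inhibitors CDKN1A (−0.05, limma adjusted p = 0.74) and CDKN1B (0.11, limma adjusted p = 0.32). The rise was not steady: the mean log2 level of the mitosis list in series 1 was 5.17 at CT24, 4.68 at CT48, 4.53 at CT56 and 5.27 at CT76, and in series 2 it was 5.09, 4.90, 4.87 and 5.29. The mean of the replication list was 4.38 and 4.57 at CT48 in the 2 series and 4.99 and 5.04 at CT76. Without CT24, 10 replication and 17 mitosis genes were higher, and at the same hours of the cycle 16 and 3. In the trend over all 28 libraries, 13 of 45 replication genes and 2 of 50 mitosis genes were called upward, beside 5% of all genes. The element CHR (TTTGAA) was in 22 of 43 mitosis promoters (51.2%), in 1 of 37 replication promoters (2.7%) and in 13.6% of all promoters, and CCAAT was in 34 of 43 (79.1%), 20 of 37 (54.1%) and 33.0%. TOP2A holds 2 CHR matches, in capitals, 1 of them on the opposite strand.
TOP2A, chr17:40417897-40418146, minus strand: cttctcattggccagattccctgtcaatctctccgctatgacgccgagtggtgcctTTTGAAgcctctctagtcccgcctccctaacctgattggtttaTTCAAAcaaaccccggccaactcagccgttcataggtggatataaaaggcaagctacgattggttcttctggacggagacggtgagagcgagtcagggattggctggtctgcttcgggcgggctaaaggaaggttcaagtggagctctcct

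Cytosolic ribosomal protein genes had the largest share of members called higher of the lists plotted. Of 74 tested, 55 were higher and 0 lower, all 74 had a positive change, and the median was 0.20. RPL39 was at 3107 to 3676 TPM early and at 3677 to 5205 TPM late, a change in log2 of 0.41 (SE 0.06, limma adjusted p = 0.00082), with windows that adjoin without overlap. RPS29 had a log2 change of 0.33 and RPL34 of 0.31. These transcripts are short and have many processed pseudogenes, so that reads may be shared with copies. Without CT24 the count was again 55, but at the same hours of the cycle it was 6, beside 2.7% of all genes. Against CT40 to CT52 it was 1, beside 1.41% of all genes. In series 2 alone, where 27 of all genes were higher, it was 0. Of 42 ribosome biogenesis genes 0 were higher and 1 was lower, RRP12 (−0.16), which was not called without CT24.

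Antigen presentation, lysosome and matrix genes were higher in part, with smaller list medians in series 2 than in series 1. Of 15 MHC class I genes, 9 were higher and 1 lower (median 0.28). HLA-B, a class I heavy chain, was at 74.0 to 137 TPM early and at 138 to 169 TPM late, a log2 change of 0.54, which was 0.84 in series 1 and 0.25 in series 2. The class I heavy chains are close paralogs, so their separate levels are uncertain. PSMB9, an immunoproteasome subunit, had a log2 change of 0.48 and ERAP2, a peptide trimming enzyme, of 0.45, whereas TAP2, a peptide transporter chain, was lower (−0.25) but not called without CT24. Against CT40 to CT52, 0 of the 15 were called either way, beside 2.76% of all genes. Of 30 interferon-stimulated genes 5 were higher and 1 lower, among them BST2 (tetherin), at 9.31 to 21.4 TPM early and 18.3 to 29.5 TPM late, a log2 change of 0.83. Of 41 lysosome genes, 12 were higher and 4 lower (median 0.09), including SGSH, a sulfatase of heparan degradation (0.53), GAA, acid glucosidase (0.46), and CTSF, a cathepsin, at 20.6 to 27.5 TPM early and 26.8 to 34.5 TPM late (0.40). Without CT24, 9 lysosome genes were higher and 2 lower. The CLEAR core TCACGTG, the site bound by TFEB, was in 9 of 27 lysosome promoters (33.3%), in 6 of 11 of called members (54.5%) and in 3.38% of all promoters, and it contains the E-box CACGTG. The CTSF window holds 1 match, in capitals, read on the opposite strand.
CTSF, chr11:66568607-66568856, minus strand: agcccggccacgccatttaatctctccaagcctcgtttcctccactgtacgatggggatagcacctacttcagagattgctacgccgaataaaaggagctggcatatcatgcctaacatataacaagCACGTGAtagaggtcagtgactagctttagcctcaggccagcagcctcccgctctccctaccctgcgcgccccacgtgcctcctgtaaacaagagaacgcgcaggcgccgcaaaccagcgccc

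Among 30 other matrix genes 9 were higher and 3 lower, and among 17 collagens 6 were higher and 2 lower. The median change of the matrix genes was 0.16 in series 1 and −0.0018 in series 2, and that of the collagens 0.25 and 0.028. Without CT24 the counts were 7 and 2 for matrix genes and 5 and 1 for collagens. FN1, fibronectin, was at 77.6 to 389 TPM early (median 245) and at 354 to 509.6 TPM late (median 433), a log2 change of 1.02 (limma adjusted p = 0.011), and 0.70 without CT24. Its windows overlapped, and series 2 was the higher of the 2 series at each CT, as the plot of 12 genes by CT shows. VCAN, a large proteoglycan (1.08), FBLN1, a fibulin (0.87), and COL5A1 (0.58) were higher, while TNC, tenascin C, was lower, at 55.9 to 116 TPM early and 44.4 to 62.8 TPM late (−0.78), as was COL8A1 (−0.55). Of 25 adhesion genes 6 were higher and 8 lower, with VCAM1 (0.87) and ITGA6, the laminin receptor chain (−0.61), at either end.

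Clock and glucocorticoid genes were compared with the phase of the windows in view. Of 17 clock genes tested, 1 was higher and 4 lower. BHLHE40, a repressor of the clock, was at 102 to 172 TPM early (median 129) and at 76.6 to 91.8 TPM late (median 85.2), a change in log2 of −0.64 (SE 0.09, limma adjusted p = 0.00046), with no overlap, and against CT40 to CT52 the change was −0.30 (limma adjusted p = 0.020). Its paralog BHLHE41 was higher (0.62), with a change of 0.12 against CT40 to CT52 (limma adjusted p = 0.72). PER3, a clock repressor, was at 1.76 to 4.37 TPM early and at 0.621 to 1.97 TPM late (−0.63), and TEF, a D-box factor, had a change of −0.72, but against the libraries 24 h earlier both had a change of the other sign (PER3 0.18 and TEF 0.15). ARNTL (0.10, limma adjusted p = 0.60), PER2 (−0.36, limma adjusted p = 0.18), CRY1 (−0.19, limma adjusted p = 0.46), NR1D1 (0.14, limma adjusted p = 0.60) and DBP (−0.03, limma adjusted p = 0.93) were not called. The E-box CACGTG was in 4 of 15 clock promoters (26.7%) and in 6.49% of all promoters.

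The glucocorticoid list changed with CT24. With it, 3 of 20 genes were higher and 1 lower, with a median of 0.15, and without it 2 were higher and 3 lower, with a median of −0.10. FKBP5 had a log2 change of 0.66 (limma adjusted p = 0.26) with CT24 and 0.10 without. PER1 went from 0.16 to −0.36 and TSC22D3 from 0.27 to −0.32, none of them called. DUSP1, a phosphatase that glucocorticoids induce, went from −0.42 (limma adjusted p = 0.14) to −0.64 (limma adjusted p = 0.0070), and the metallothionein MT1X from −0.50 (limma adjusted p = 0.33) to −0.94 (limma adjusted p = 0.0059). CEBPD, a transcription factor of the acute phase response, was called either way, at 7.44 to 21.6 TPM early and 21.9 to 30.4 TPM late, with a log2 change of 0.84 with CT24 and 0.59 without.

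**Figure D4:**
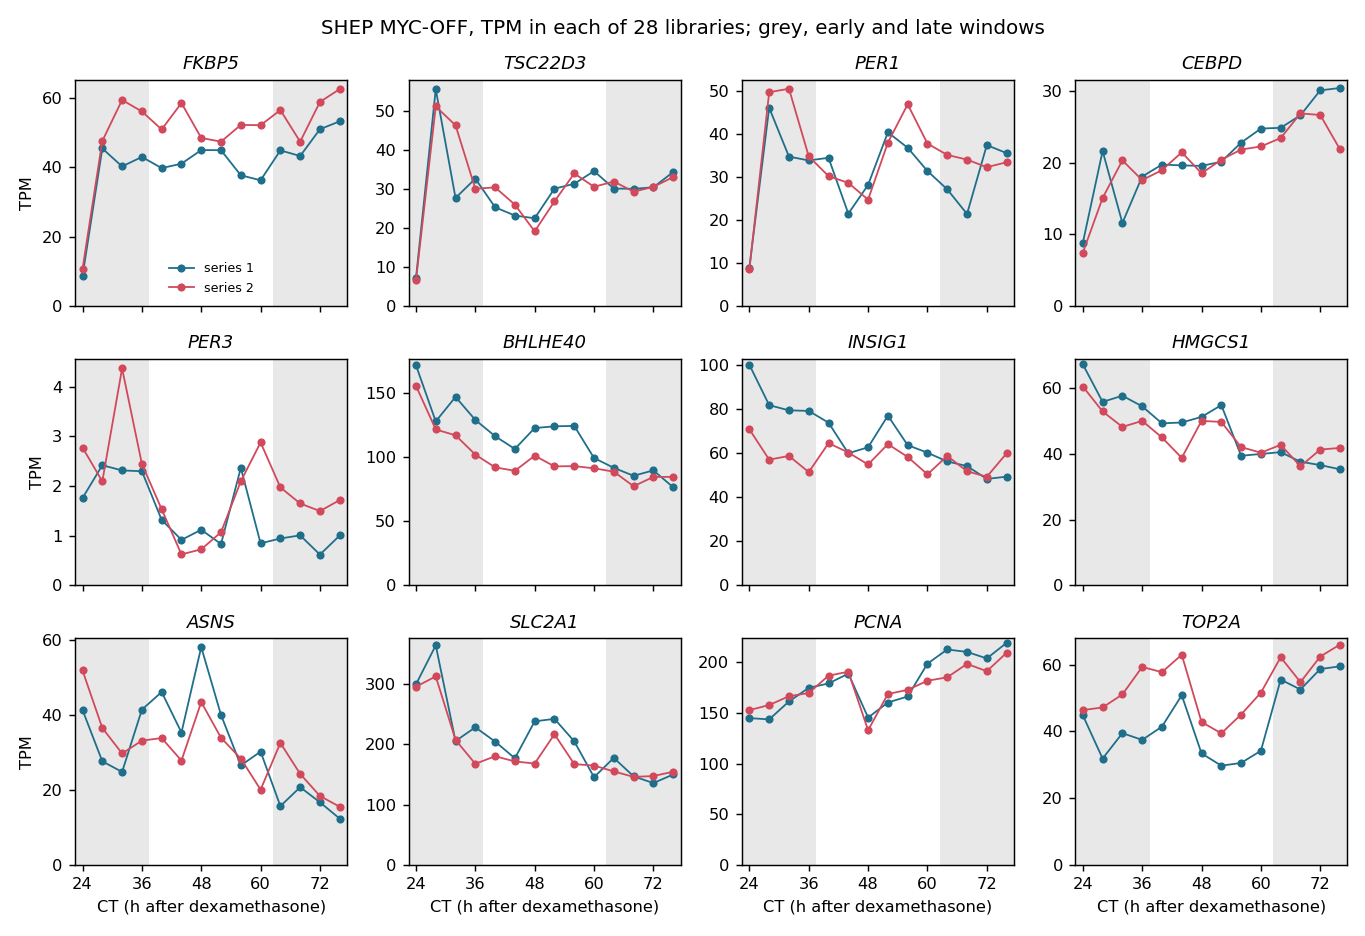
TPM (linear axis from 0) against CT (hours after dexamethasone) for 12 members of the gene lists in the 28 SHEP MYC-OFF libraries, with each series as a line and the windows in grey. FKBP5 stands at 8.67 and 10.7 TPM at CT24 and never below 36.3 TPM afterwards, and PCNA dips at CT48 before its highest late values.

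The middle libraries, which the windows did not use, were fitted on their own for a slope over CT40 to CT60. That span is less than a 24 h cycle and the fit held no 24 h terms, so phase and drift cannot be told apart in the slope. Of 14273 genes tested 3 were called (0.021%), 2 of them falling (0.014%) and 1 rising (0.00701%): ARNTL (−0.98 per 24 h), GAREM1 (−0.87) and IGFBP4 (0.74), each with an adjusted p of 0.032 in limma, and 1594 genes had an unadjusted p below 0.05. Of the genes called between windows that were tested in the middle, 990 of 1592 (62.2%) had a middle slope of the same sign as their change, beside 54.8% of all genes. The called genes were chosen on their early and late values, so their middle levels are a description. The 686 genes higher late had a median change of 0.16 from early to middle and 0.14 from middle to late, and the 918 lower ones of −0.19 and −0.12. Set against CT40 to CT52, the late window had 202 genes higher (1.41%) and 192 lower (1.34%), 394 in all (2.76%).

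The same windows in SHEP MYC-ON, where N-MYC-ER was activated, gave 7338 called genes (51.4%), with 2590 higher late (18.1% of 14285) and 4748 lower (33.2%). Of the genes called in MYC-OFF that were tested there, 1056 of 1539 (68.6%) had the same sign in MYC-ON, beside 57.6% of all genes. The difference between the changes was called for 5543 of 14376 genes (38.6%), with 1929 above (13.4%) and 3614 below (25.1%) the MYC-OFF change. After rescaling this split was 2605 above and 2919 below. The fall of the cholesterol genes was found in both conditions, with 20 of 24 members lower in MYC-OFF, 13 lower and 1 higher in MYC-ON, and 5 members above and 5 below in the test of the difference. The cell cycle genes differed. Of the replication genes 42 were lower in MYC-ON and 43 lay below the MYC-OFF change, and of the mitosis genes 38 were lower and 45 lay below. CCNB1, the mitotic cyclin, went from 193 ± 16.5 TPM (SD, n = 8) early to 119 ± 23.4 TPM late in MYC-ON, a difference to MYC-OFF of −0.89 (limma adjusted p = 5.5e-06).

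The stress response genes were mixed in MYC-ON, with a median change of 0.14. Of 36 tested, 13 were higher and 9 lower in MYC-ON, beside 18.1% and 33.2% of all genes. The change of 19 was above and of 2 below that in MYC-OFF, beside 13.4% and 25.1% of all genes. ASNS went from 63.1 ± 10.6 TPM to 170 ± 101.1 TPM in MYC-ON (SD, n = 8), a difference of 2.03 to its fall in MYC-OFF (limma adjusted p = 1.2e-05). TXNIP, which rose in MYC-OFF, went from 28.2 ± 4.24 to 152 ± 50.6 TPM in MYC-ON, a difference of 1.38 (limma adjusted p = 4.4e-05). Single growth factor and matrix genes differed as well. Of 29 genes of the matrix list, the change of 7 was above and of 15 below that in MYC-OFF. Of 17 collagens it was 2 above and 7 below, beside 13.4% and 25.1% of all genes. IGFBP4 was at 6.43 ± 0.765 TPM early and 7.11 ± 2.37 TPM late in MYC-ON (difference −1.45, limma adjusted p = 7.8e-07), DPT went from 6.18 ± 2.07 to 2.96 ± 0.846 TPM (−2.36) and COL5A1 from 19.8 ± 4.95 to 6.46 ± 0.797 TPM (−2.02). For SAA1 the difference was 1.26 (limma adjusted p = 0.26), with 66.1 ± 57.4 TPM early and 584 ± 193 TPM late in MYC-ON.

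**Figure D5:**
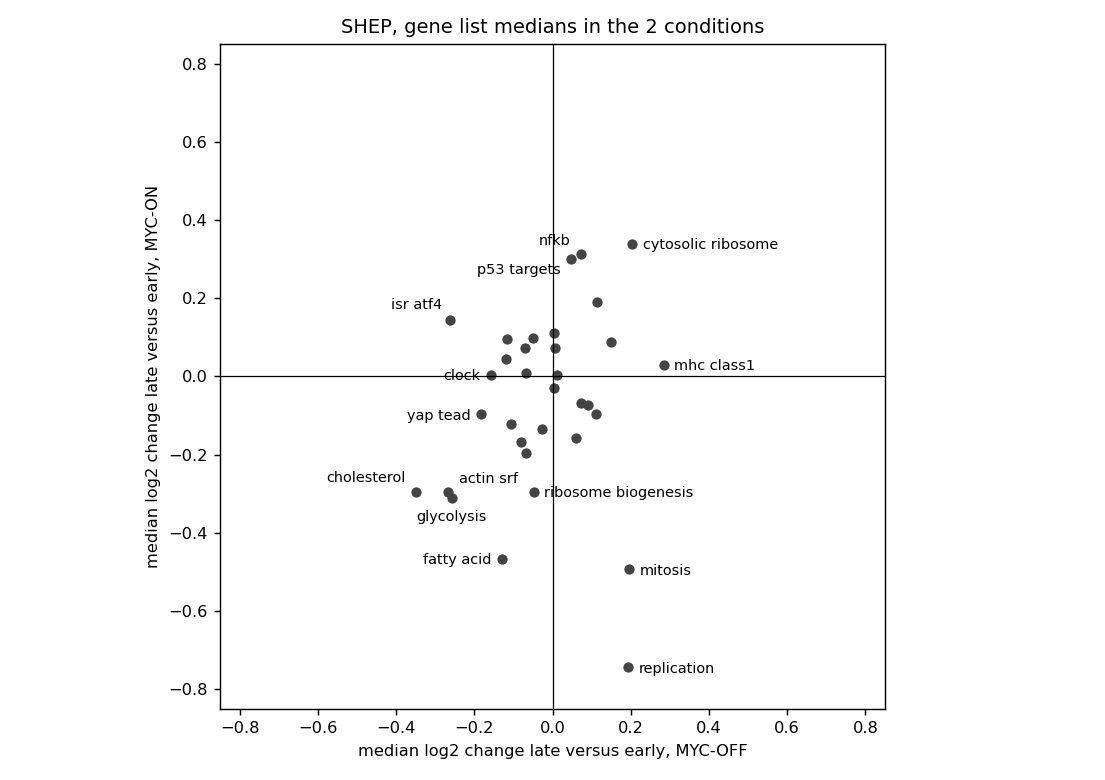
Median log2 change, late versus early, of each gene list in SHEP MYC-OFF (horizontal) and SHEP MYC-ON (vertical); each point is a list. Cholesterol synthesis lies in the lower left (MYC-OFF −0.35), the integrated stress response in the upper left (MYC-OFF −0.26), and replication and mitosis in the lower right (MYC-OFF 0.19 and 0.20).

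MYCN reads can come from the fusion as well as from the gene, but the paper states that SHEP cells do not express N-MYC of their own. MYCN was at 414 to 646 TPM early and at 543 to 688 TPM late, which overlap (log2 change 0.23, limma adjusted p = 0.057). MYC had a change of −0.28 (limma adjusted p = 0.11). In SKNAS MYC-OFF, the other cell line, with 1 series, the same windows gave 1 called gene (0.0071% of 14076) and a median change of all genes of −0.51, and the count of genes that differed from SHEP depended on scaling: 809 above (5.41%) and 6470 below (43.2%) as deposited (48.6% of genes), 3122 and 2670 after rescaling, and 14 and 7 at the same hours of the cycle.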

How the data were processed

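Polyadenylated RNA of SHEP cells was sequenced, and only an average depth over the study is stated. The authors quantified reads with Salmon 1.3.0 against Gencode 35 (GRCh38) and summarised transcripts to genes with Tximport 1.12.3, with Ensembl 101 symbols. TPM were deposited for 60237 entries, of which 961 repeat a symbol, and the entry with the highest mean was then used. TPM are no counts, so the DESeq2 model that the authors used was not applied. Here log2(TPM + 1) was fitted with limma 3.58.1 (R 4.3.3, two-sided, Benjamini-Hochberg over all genes tested) for genes with a mean of at least 1 TPM, with the series as a block. The pseudocount understates the change of low genes. A call needed a log2 change of 0.15 or more and an adjusted p no higher than 0.05. The fit was tested on simulated data with known changes.

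Groups and series come from the labels, and the study's methods call the 2 SHEP series biological replicates. The 37 gene lists, their members and the windows were chosen with earlier results of these data known, and lists were written from general knowledge. The genes named were the 12 per direction with the largest change among called genes at 5 TPM or more whose windows did not overlap within either series, the leading called members of each list (3 in its main direction and 1 in the other), a fixed set of clock, cycle, nutrient and MYC genes, and the 5 per direction that differed most in MYC-ON. The genes low at CT24, with DUSP1 and MT1X, were named after their values were seen, as were other genes of a count of 5 or fewer. Coordinates are from Gencode 44 (GRCh38), and promoters from RefSeq (GRCh38.p14). Alternatives changed the pseudocount, the filter, the block, the scaling, the variance trend, a GC covariate, the hours compared and the libraries used. Some genes of the fixed set and lists are not reported here.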

Additional observations from a re-analysis of the deposited data

Results flagged for a closer look

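In 13 of 276 groups of 8 libraries, 1 library lay far from the others by Dixon's criterion, about the 1 in 20 that chance gives. Of the 13, 5 were series 1 at CT32 in the early window: CGA at 69.9 TPM (the other 7 at 17.2 to 32.5), STC1 at 30.9 TPM, LOX at 125 TPM, PMEPA1 at 227 TPM and AL034430.2 at 27.01 TPM, the last listed at 0 in the other 7. Also in the early window, PER3 was at 4.37 TPM in series 2 at CT32, RGCC at 3.49 TPM in series 2 at CT28, CDKN1B at 20.9 TPM in series 1 at CT24, and TGFB2-OT1 at 5.16 TPM in series 2 at CT24, with the other 7 listed at 0. In the late window, LCN2 was low at 3.79 TPM in series 2 at CT64, TNFRSF10B at 123 TPM and LOX at 52.4 TPM in series 2 at CT68, and ARNTL at 11.4 TPM in series 1 at CT76.

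Among genes named by rank, in the fixed set or for their MYC-ON difference, 30 had a change that differed between MYC-ON and MYC-OFF. The limma test of that difference used 8 early and 8 late libraries of each condition. Genes named only as leading list members are not counted here. Values are the MYC-ON minus the MYC-OFF log2 change. Among the genes with the largest rise in MYC-OFF it was −2.36 for DPT, −1.74 for ALOX5AP, −1.45 for IGFBP4, −1.04 for PLAAT4 and −0.88 for MMP7. Among those with the largest fall, CGA (−1.098) and CGB8 (−0.99) fell further in MYC-ON, while the difference was above 0 for SFN (1.102), ANKRD1 (1.02) and UCA1 (0.55). Of the fixed set, ASNS (2.03), TXNIP (1.38), CCN1 (1.11), MYC (0.91), CRY1 (0.71), PER3 (0.55), CCN2 (0.54) and ARNTL (0.45) lay above 0, and MKI67 (−0.91), CCNB1 (−0.89) and MYCN (−0.46) below. The 5 largest differences above 0 were those of LINC02154 (3.25), TGFB2-OT1 (3.12), AL034430.2 (2.46), AC008581.2 (2.35) and SPANXC (2.21), of which TGFB2-OT1 and AL034430.2 were listed at 0 in most MYC-OFF libraries. The 5 largest below 0 were those of the heat shock genes HSPA1A (−2.55) and HSPA1B (−2.02), which are near-identical and may share reads, AC025257.1 (−2.07), DPT and COL5A1 (−2.02). HSPA1A went from 44.03 ± 9.06 to 9.43 ± 7.70 TPM (SD, n = 8) in MYC-ON.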

How the results depend on the processing

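Counts of genes higher and lower depended on which libraries were compared. Beside 686 higher and 918 lower, the counts were 385 and 415 at the same hours of the cycle, and 8 and 7 with 1 mean per series and window. Chosen after seeing the data were 3 alternatives: a trend over 26 libraries without CT24 (496 and 864), the late window against CT40 to CT52 (202 and 192), and the MYC-ON difference without CT24 (1669 above and 3128 below). With the libraries of CT76 left out the counts were 409 and 500, of CT72 432 and 539, and of CT68 617 and 561. Over 26 such settings they ranged from 27 to 733 higher and from 21 to 1111 lower, with the lowest in series 2 alone, and over the 16 that left out 1 library from 520 to 733 and from 618 to 1108. Without the replicate block they were 560 and 711. The block is the series that a replicate number marks. Between the series, deviations from the window means at the same CT correlated across genes with r from −0.0016 to 0.29 over 8 CTs. The difference between MYC-ON and MYC-OFF ranged from 1272 to 1277 above and from 2247 to 2611 below when a replicate number was left out, and at the same hours it was 1093 and 2882. For SKNAS minus SHEP the counts moved from 809 and 6470 to 3122 and 2670 when rescaled and to 14 and 7 at the same hours. Of 5232 values of named genes under alternatives, 4463 kept their direction and side of the threshold, 745 lost the call, 20 gained it and 4 changed sign, all against CT40 to CT52: TEF 0.15, PER3 0.18, STC1 0.0453 and ACTA2 −0.026, as did the clock list median (0.12). The causes were not tested. The unknown depth leaves low TPM without a counting error.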

Other observations

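The called members of lists not described above are given here, beside 4.8% higher and 6.43% lower of all genes tested. Some of these lists lay above those shares and others near or below them. TGF-beta genes had 2 of 24 higher and 5 lower, among the latter SMAD7 (−0.51) and GREM1 (−0.74), and without CT24 3 were lower. Autophagy genes had 5 of 25 lower and 0 higher, among them MAP1LC3B (−0.28) and ULK1 (−0.29), while 12 of 41 lysosome genes were higher. NF-κB genes had 2 of 21 higher, CCL2 and CXCL1 (0.64), of which 1 remained called without CT24, CCL2. Cell cycle brakes had 4 of 22 higher, led by TXNIP, and p53 targets had 2 of 25 higher and 1 lower. NRF2 targets had 2 of 24 higher, including FTH1, the ferritin heavy chain, at 4649 to 6919.7 TPM early and 6791 to 8207 TPM late (log2 change 0.44). The unfolded protein response had 2 of 23 lower, immediate early genes 1 of 29, replication-dependent histone genes 3 of 19, sterol efflux genes 1 of 11 and glucose-sensing genes 1 of 8 with 1 higher. Of 53 oxidative phosphorylation genes 1 was higher, and of 13 mitochondrially encoded and 10 Notch genes 0 were called. Mesenchymal markers had 1 of 15 higher and 3 lower, including VIM (−0.29), and of 5 adrenergic markers 0 were called. Without CT24, 4.08% of all genes were higher and 4.62% lower. In that setting 1 unfolded protein response gene, 1 histone gene, 2 mesenchymal markers and 1 adrenergic marker were lower. Of the immediate early genes 3 were then higher and 2 lower.

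At CT48, both libraries were below the other 26 for 80 genes and above them for 40, beside 194 and 332 at CT24, 123 and 206 at CT28, and 67 and 81 at CT76.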
